A study of Mus musculus with 12 samples.

Results

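The genes that encode the enzymes of DNA methylation and demethylation were Dnmt1, Uhrf1, Dnmt3a, Dnmt3b, Dnmt3l, Tet1, Tet2 and Tet3. They were taken by name, as 8 of the 55487 genes counted, and all 8 were found in the count table. Of these, 7 passed the filter on low counts and were tested among 18109 genes; Dnmt3l did not pass and is given by its counts. Bulk RNA sequencing measured them in 12 libraries from embryoid bodies, free-floating aggregates kept in serum-containing medium, made of mouse epiblast stem cells (EpiSCs). EpiSCs are primed, post-implantation-like pluripotent cells. In all 4 groups the stem cells had been converted in culture from embryonic stem cells and carried a FLAG-tagged Mixl1 transgene that doxycycline switches on. D1Dox_d2 received doxycycline at 1 µg/mL and was collected on day 2, and D3Dox_d4 received the same dose and was collected on day 4. NoDox_d2 and NoDox_d4 were collected on the same days without the drug, and each group had 3 libraries. What the number after the D stands for is not given in the labels, nor whether the line was a single clone or whether replicates came from separate cultures. The p-values therefore measure the spread between these libraries, which may be technical. No group combined doxycycline with cells lacking the transgene, so an effect of the drug and an effect of Mixl1 cannot be told apart.

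In mammals, Dnmt1 copies methyl groups onto the new DNA strand after replication, and Uhrf1 recruits it to hemimethylated CpG sites. Dnmt3a and Dnmt3b write new methylation, most of it in the epiblast around implantation, with Dnmt3l as a catalytically inactive helper that is best known from germ cells and naive embryonic stem cells. Tet1, Tet2 and Tet3 oxidise 5-methylcytosine with 2-oxoglutarate as co-substrate, which opens the way to its removal by base excision repair or by dilution. Primed pluripotent cells are known for high Dnmt3b, and Tet1 is the TET enzyme best known from pluripotent cells.

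Libraries held 24100487 to 28020036 counts, and 3 counts, taken as the detection floor, corresponded to 0.106 to 0.130 CPM, the count scaled to the effective library size. Mixl1, endogenous and transgenic reads together, had 392.2, 362 and 387 CPM in D1Dox_d2, against 91.0, 0.593 and 1.15 CPM in NoDox_d2. On day 4 it had 478, 417 and 449.6 CPM in D3Dox_d4, against 1.62, 1.83 and 1.11 CPM in NoDox_d4. The groups did not overlap on either day (two-sided exact permutation p = 0.1, the smallest that 3 against 3 allows). Replicate 1 of both NoDox groups stood apart from its partners: its log2 CPM correlated with theirs at 0.957 to 0.961, against 0.990 and 0.991 between replicates 2 and 3. In NoDox_d2 that library held 1261 CPM of the streak gene T, against 100.1 and 142 CPM in replicates 2 and 3, and in NoDox_d4 it held a summed 264 CPM of 8 neural markers, against 1017 and 1067 CPM. The primed epiblast markers Pou5f1, Fgf5 and the rest of a list of 12 were all detected in every group. Of 12 naive markers, Zfp42 reached at most 0.530 CPM and had no count in D3Dox_d4, but others were higher. The 12 naive markers summed to 265 to 296 CPM in D1Dox_d2, against 288 to 301 CPM in NoDox_d2. Of 10 tested, 4 rose and 1 fell. On day 4 they summed to 51.5 to 65.0 CPM in D3Dox_d4, against 63.3 to 102 CPM in NoDox_d4, with 2 that rose and 1 that fell.

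Maintenance methylation comes first. Dnmt1 (GRCm38 chr9:20907209-20959888, minus strand) had 308, 354 and 324 CPM in D1Dox_d2, against 389, 458 and 429 CPM in NoDox_d2. Its day 4 values were 218, 288 and 293 CPM in D3Dox_d4, against 512, 408 and 459 CPM in NoDox_d4. All libraries with doxycycline lay below all libraries of the same day without it. The log2 fold change was -0.37 ± 0.13 (SE) on day 2, which missed the threshold of an adjusted p under 0.05 (adjusted p = 0.0512). On day 4 Dnmt1 fell by 42.1%, a log2 fold change of -0.79 ± 0.13 (adjusted p = 0.00126). In bulk samples, fewer cells that express a gene and less RNA per cell cannot be told apart, here and for the results that follow.

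Uhrf1 (chr17:56303321-56323486, plus strand) was also lower with doxycycline. It had 301.3, 301.4 and 278 CPM in D1Dox_d2, against 325, 362 and 362 CPM in NoDox_d2. Day 4 gave 222, 240.5 and 239.9 CPM in D3Dox_d4, against 364, 305 and 321 CPM in NoDox_d4. Again the libraries with doxycycline were below those without it on both days, with no overlap. Uhrf1 fell by 29.1% on day 4 (log2 fold change -0.50 ± 0.09, adjusted p = 0.00245), while the day 2 value of -0.25 ± 0.09 was not called (adjusted p = 0.0579). Without replicate 1 of NoDox_d2, both day 2 values passed the threshold, with log2 fold changes of -0.44 for Dnmt1 (adjusted p = 0.0252) and -0.31 for Uhrf1 (adjusted p = 0.0245), and they also passed without replicate 1 of NoDox_d4 (adjusted p = 0.0304 and 0.025). Neither gene's doxycycline effect was called as different between the days. The difference, day 4 minus day 2, was -0.42 ± 0.18 for Dnmt1 (adjusted p = 0.151) and -0.24 ± 0.13 for Uhrf1 (adjusted p = 0.227). In such differences, here and below, day and schedule of induction cannot be told apart.

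**Figure D1:**
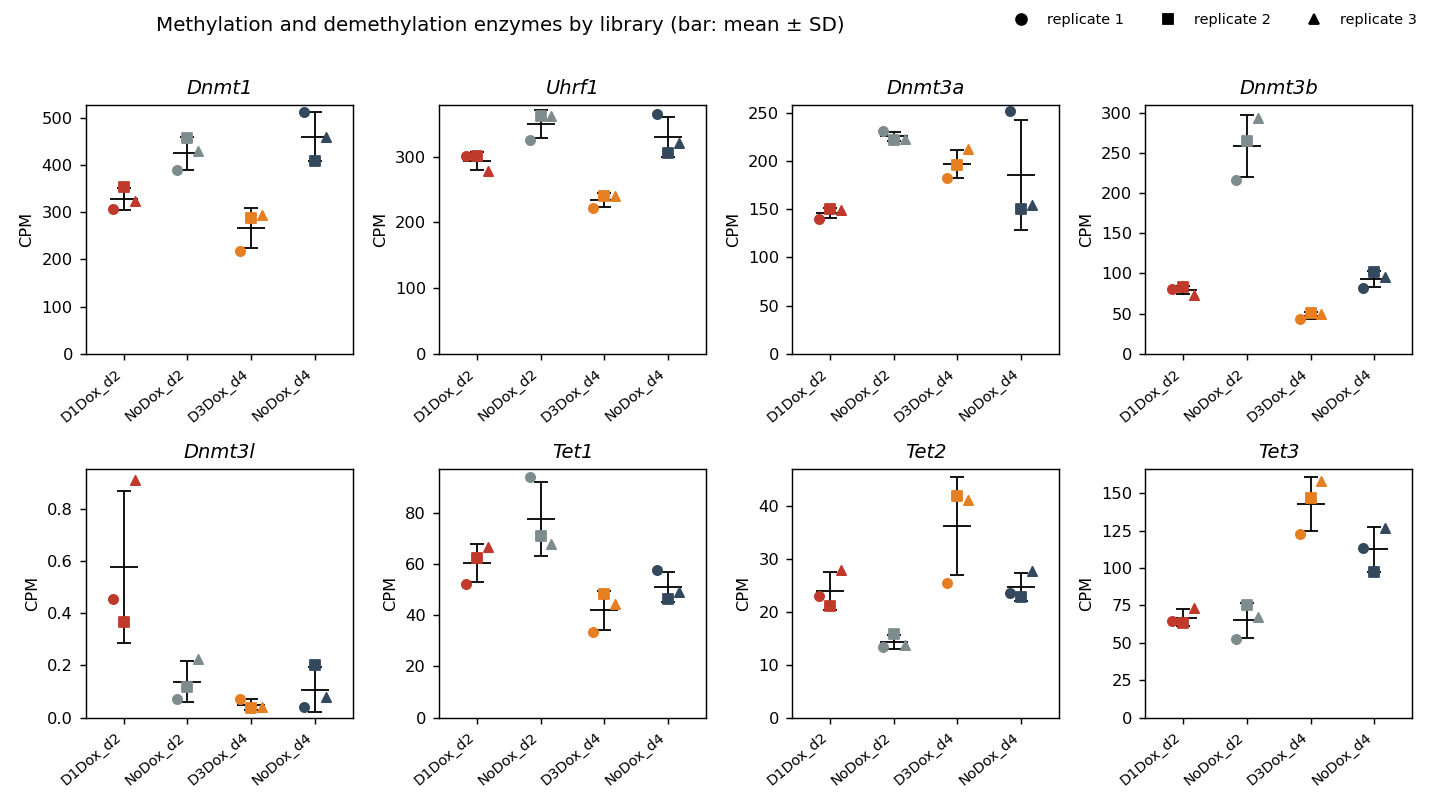
Level of each enzyme gene in each of the 12 libraries, in CPM on linear axes that start at 0 and differ between panels. Points are libraries, with the symbol giving the replicate number, and bars give the mean ± SD of 3 libraries; Dnmt3b separates doxycycline from no doxycycline on both days, at 73.5 to 83.4 against 217 to 293 CPM on day 2.

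Dnmt1 and Uhrf1 were the closest pair among the 7 tested enzymes. Their log2 CPM profiles over 12 libraries, each centred on its own mean, differed by a root mean square of 0.155, and the next closest pair, Tet1 and Uhrf1, differed by 0.274. The farthest pair was Dnmt3b and Tet2, at 1.36. The 12 points share library composition, so these distances are descriptions.

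Both genes belong to the machinery of replicating cells, and 20 genes of DNA replication in S phase were counted beside them. Of these 20, 9 fell on day 2 and 16 fell on day 4, where 13.4% and 10.2% of all tested genes fell. Their median log2 fold change was -0.38 on day 2 and -0.69 on day 4, beside -0.030 and -0.031 over all genes tested. Mcm3, a subunit of the replicative helicase, averaged 225 ± 3.66 CPM in D3Dox_d4 and 393 ± 14.3 CPM in NoDox_d4 (SD, n = 3 each), a log2 fold change of -0.81 ± 0.09 (adjusted p = 0.000125). Mcm5, another subunit, was at 176 ± 1.96 and 340.4 ± 51.6 CPM in the same groups (log2 fold change -0.95 ± 0.11, adjusted p = 8.89e-05). On day 2 the lowest adjusted p in the list were those of Mcm6 (log2 fold change -0.63 ± 0.10) and Mcm3 (-0.51 ± 0.09). Over the alternative settings the day 4 count lay between 16 and 17 and the day 2 count between 5 and 12, with 5 without NoDox_d2 replicate 2 or 3 and 12 without both NoDox libraries numbered 1. The part of proliferation in the Dnmt1 and Uhrf1 values was not tested.

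**Figure D2:**
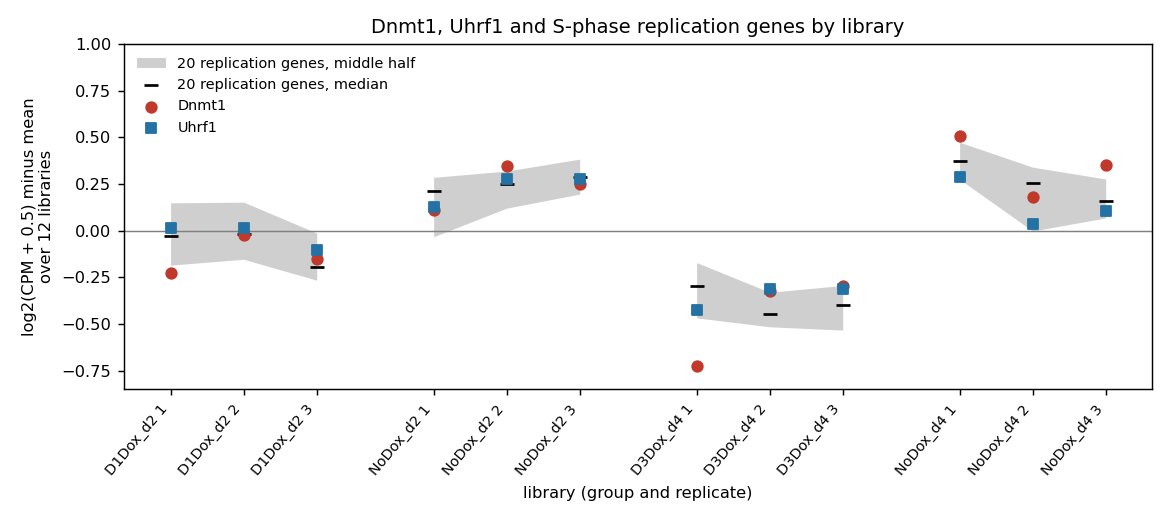
Log2(CPM + 0.5) of Dnmt1 (circles) and Uhrf1 (squares) in each library, minus the gene's mean over 12 libraries, with the median (dash) and the middle part between the quartiles (band) of 20 replication genes. Medians of the replication genes lay between -0.44 and -0.30 in D3Dox_d4, where both enzymes also had their lowest values, and between 0.16 and 0.37 in NoDox_d4.

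Promoter sequence was read for these genes because they moved with the replication genes, many of which are textbook E2F targets. RefSeq (build GRCm38.p6) gave 15 windows of 250 bases before annotated starts for the 8 enzymes. The E2F words searched, on both strands, were TTCGCGC, as well as TTGGCGC, and in addition TTCCCGC, none of which contains another. At least 1 of them was in 6.69% of 32851 windows of all genes, in 10 of 17 windows of the replication genes and in 3 of the 15 enzyme windows. Those 3 were 1 of 3 Dnmt1 windows, with TTCGCGC on the opposite strand 2 times, and both Uhrf1 windows. A match is no evidence of binding. The words contain CG, and these windows were rich in CpG. The matched Dnmt1 window held 26 and the Uhrf1 windows 10 and 30, where the median over all windows was 6. The 6.69% was not matched for CpG content. In the Dnmt1 window, 166 of 250 bases lie in annotated Dnmt1 exons, so only 30 bases around each match are shown, at chr9:20952824-20952853 and chr9:20952763-20952792, minus strand, with the matched letters in capitals. The Uhrf1 window, chr17:56304063-56304312 on the plus strand, holds no annotated Uhrf1 exon and is shown whole, with its E2F word in capitals.

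Dnmt1 first match: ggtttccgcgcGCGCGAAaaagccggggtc

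Dnmt1 second match: gcaagatgccaGCGCGAAcagctccagccc

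Uhrf1: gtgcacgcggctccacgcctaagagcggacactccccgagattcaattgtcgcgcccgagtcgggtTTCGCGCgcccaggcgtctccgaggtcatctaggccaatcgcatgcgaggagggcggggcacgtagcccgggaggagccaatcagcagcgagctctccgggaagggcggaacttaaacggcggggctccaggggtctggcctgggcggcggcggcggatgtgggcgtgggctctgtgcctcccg

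Partners of maintenance methylation fell with these enzymes in part. Of 10 listed genes 9 were tested, and 6 fell on day 2 (66.7%) and 5 on day 4 (55.6%), beside the 13.4% and 10.2% of all tested genes that fell. Cdca7, which recruits the remodeller Hells to chromatin, averaged 84.4 ± 9.94 CPM in D1Dox_d2 and 196 ± 58.8 CPM in NoDox_d2 (log2 fold change -1.22 ± 0.19, adjusted p = 0.000934). Its paralog Cdca7l was at 47.9 ± 1.57 and 99.7 ± 14.6 CPM in the same groups (log2 fold change -1.06 ± 0.12). Hells itself was at 141 ± 1.88 CPM in D3Dox_d4 and 237 ± 33.8 CPM in NoDox_d4 (log2 fold change -0.75 ± 0.10, adjusted p = 0.000249). Pcna, the sliding clamp that is also in the replication list, fell on day 4 with a log2 fold change of -0.70 ± 0.11. For Cdca7l and Hells, a difference of effects between the days was called. Day 4 minus day 2, it was 0.89 ± 0.17 for Cdca7l and -0.54 ± 0.14 for Hells. The Hells call was lost under 9 of 20 alternatives and the Cdca7l call under 0 of 20.

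Among the writers of new methylation, Dnmt3b changed most. Dnmt3b (chr2:153649450-153687730, plus strand) had 80.2, 83.4 and 73.5 CPM in D1Dox_d2, against 217, 264 and 293 CPM in NoDox_d2. Day 4 brought 42.9, 50.3 and 49.9 CPM in D3Dox_d4, against 81.7, 102 and 96.1 CPM in NoDox_d4. The groups were far apart on both days, and the D1Dox_d2 values overlapped the day 4 values without doxycycline. Dnmt3b fell by 69.4% on day 2 (log2 fold change -1.71 ± 0.13, adjusted p = 4.6e-06) and fell by 48.8% on day 4 (-0.97 ± 0.13, adjusted p = 0.000294). It was the only tested enzyme called for a difference between these effects, which was 0.74 ± 0.18 (adjusted p = 0.021), a smaller drop on day 4. That call rested on the full set of libraries: the adjusted p was 0.0502 to 0.0565 without D1Dox_d2 replicate 3, D3Dox_d4 replicate 3, NoDox_d2 replicate 2 or NoDox_d2 replicate 3.

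Time changed Dnmt3b as well. Between the days without doxycycline it fell by 63.9% in NoDox_d4 against NoDox_d2 (log2 fold change -1.47 ± 0.13, adjusted p = 9.27e-05), and with doxycycline it fell by 39.6% in D3Dox_d4 against D1Dox_d2 (-0.73 ± 0.13, adjusted p = 0.000995). Day and schedule of induction cannot be told apart in the comparison of D3Dox_d4 with D1Dox_d2. The 12 primed epiblast markers had a summed level of 1011 to 1102 CPM in D1Dox_d2, against 1180 to 1444 CPM in NoDox_d2, and 4 of the 12 fell. Their sum was 529 to 590 CPM in D3Dox_d4, against 487, 943 and 856 CPM in NoDox_d4, where the low value is replicate 1, with 2 that rose and 3 that fell. In NoDox_d4 against NoDox_d2, 8 of the 12 fell. The part of these cells in the Dnmt3b values was not tested.

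The single RefSeq window of Dnmt3b, chr2:153649199-153649448 on the plus strand, is shown since this gene's change was the largest. It has none of the 3 E2F words and has 3 GC boxes (CCGCCC on either strand, in capitals, 2 of them adjoining), a word found in 32.7% of windows of all genes and in 11 of the 15 enzyme windows. It holds 21 CpG in 250 bases, where the median over all windows was 6.

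Dnmt3b: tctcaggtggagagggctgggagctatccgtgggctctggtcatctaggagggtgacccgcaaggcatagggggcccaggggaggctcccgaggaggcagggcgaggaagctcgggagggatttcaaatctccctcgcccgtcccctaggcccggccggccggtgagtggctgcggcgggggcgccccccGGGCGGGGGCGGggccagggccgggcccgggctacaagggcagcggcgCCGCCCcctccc

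Dnmt3a (chr12:3806007-3914443, plus strand) was lower with doxycycline on day 2. It had 139.6, 149.8 and 149 CPM in D1Dox_d2, against 231, 222 and 223 CPM in NoDox_d2, with no overlap and with narrow spread in both groups. Dnmt3a fell by 35.2% on day 2 (log2 fold change -0.63 ± 0.17, adjusted p = 0.0163). Leaving out D1Dox_d2 replicate 1 or replicate 3 put the adjusted p at 0.0545 or 0.0518.

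On day 4, Dnmt3a had 182, 196 and 212 CPM in D3Dox_d4, against 251, 149.9 and 154 CPM in NoDox_d4. The groups overlapped because replicate 1 of NoDox_d4 was higher than every D3Dox_d4 library while replicates 2 and 3 were lower. The log2 fold change was 0.086 ± 0.17 (adjusted p = 0.754). Without that library it was 0.37 ± 0.09 (adjusted p = 0.0111), and without NoDox_d4 replicate 2 or replicate 3 it was -0.043 or -0.026. That library's summed level of 10 nascent and paraxial mesoderm markers was 408 CPM, against 156 and 164 CPM in replicates 2 and 3, and their part in its Dnmt3a level was not tested. The difference between the day effects was 0.71 ± 0.23 (adjusted p = 0.0669), and it was called without NoDox_d4 replicate 1 (adjusted p = 0.000485). Over time Dnmt3a was not called in either comparison. In NoDox_d4 against NoDox_d2 it was at -0.28 ± 0.17 (edgeR adjusted p = 0.325), called under 2 alternatives. In D3Dox_d4 against D1Dox_d2 it was at 0.43 ± 0.17 (edgeR adjusted p = 0.0534) with no overlap, called under 6 alternatives. Of the exon bases of Dnmt3a, 0.799% overlap the antisense gene Dnmt3aos, and counting took no account of strand.

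Dnmt3l (chr10:78041947-78063622, plus strand) was near the floor. It had 12, 9 and 21 counts in D1Dox_d2, against 2, 3 and 6 counts in NoDox_d2. All D1Dox_d2 libraries were above all NoDox_d2 libraries (two-sided exact permutation p = 0.1). The ratio of summed counts, scaled to library size, was 4.15 with a 95% exact interval of 2.10 to 8.94 that covers counting error only. In some fits with a library left out, Dnmt3l passed the filter. It was called on day 2 without D1Dox_d2 replicate 2, NoDox_d2 replicate 3, or any single D3Dox_d4 or NoDox_d4 library. In the other such fits, and with no filter, it was not called on day 2. By day 4 there were 2, 1 and 1 counts in D3Dox_d4, against 1, 5 and 2 counts in NoDox_d4, and no difference was detectable at this depth. Its exons overlap those of Aire on the opposite strand over 2.24% of their bases.

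**Figure D3:**
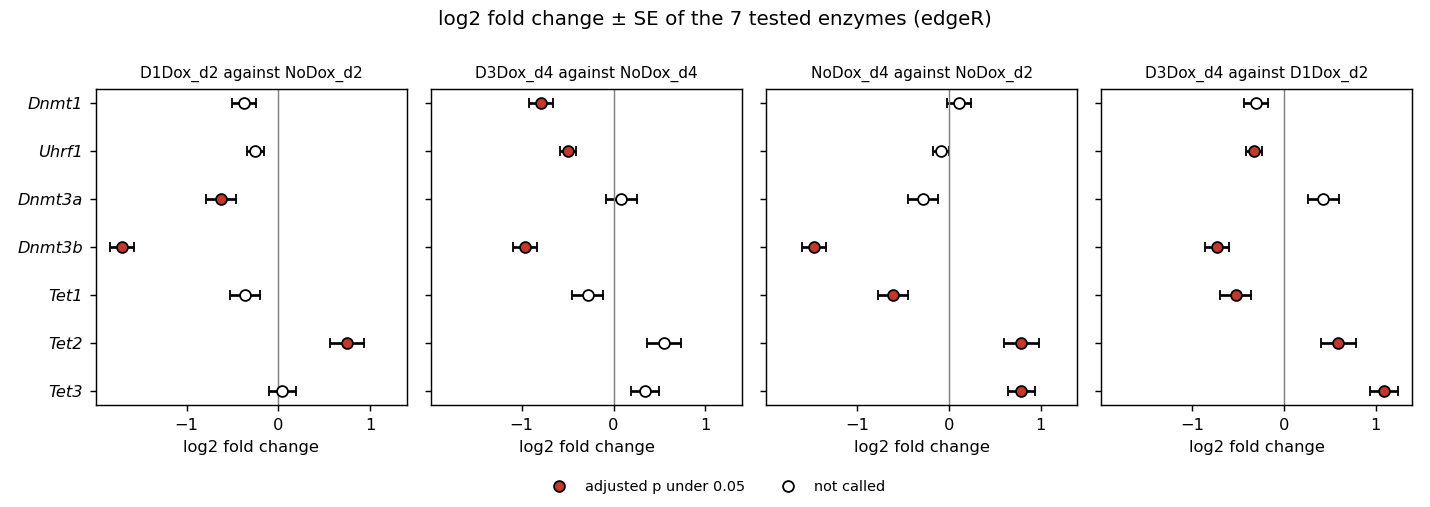
Log2 fold change (x axis) of the 7 tested enzyme genes in 4 comparisons, first group minus second, with SE as bars. Filled points were called at an adjusted p under 0.05: Dnmt3b is filled and left of 0 in all 4 panels, and Tet2 and Tet3 are filled and right of 0 in both comparisons of day 4 with day 2.

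The TET enzymes did not move as a group. Tet2 (chr3:133463679-133545139, minus strand) was the enzyme that rose with doxycycline on day 2, with 22.9, 21.0 and 27.9 CPM in D1Dox_d2, against 13.3, 15.7 and 13.7 CPM in NoDox_d2. No library of NoDox_d2 reached the lowest of D1Dox_d2. The log2 fold change was 0.75 ± 0.19 (adjusted p = 0.013), a rise of 68.0%. Without D1Dox_d2 replicate 3 or NoDox_d2 replicate 3 the adjusted p was 0.0637 or 0.0512. On day 4, Tet2 had 25.5, 41.8 and 41.1 CPM in D3Dox_d4, against 23.6, 22.8 and 27.6 CPM in NoDox_d4, so that D3Dox_d4 replicate 1 lay within the other group. The log2 fold change of 0.55 ± 0.19 missed the threshold (adjusted p = 0.0521), and without that library it was 0.75 ± 0.15 (adjusted p = 0.0064). It also passed without NoDox_d2 replicate 1 (adjusted p = 0.0425).

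Tet1 (chr10:62804570-62908996, minus strand) had 52.3, 62.1 and 66.6 CPM in D1Dox_d2, against 94.1, 70.7 and 67.9 CPM in NoDox_d2. Day 4 values were 33.5, 48.1 and 44.2 CPM in D3Dox_d4, against 57.5, 46.4 and 48.9 CPM in NoDox_d4. The day 2 groups were separate by a narrow margin and the day 4 groups overlapped. Neither doxycycline effect was called (log2 fold change -0.36 ± 0.17, adjusted p = 0.125 on day 2; -0.28 ± 0.17, adjusted p = 0.258 on day 4). The highest Tet1 level was that of NoDox_d2 replicate 1, the library with the high T level. Without that library the day 2 value was -0.21 ± 0.16 (adjusted p = 0.308), and without NoDox_d4 replicate 1 the day 4 value was -0.19 ± 0.18 (adjusted p = 0.507).

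Tet3 (chr6:83362373-83459084, minus strand) showed no call for doxycycline either. It had 64.4, 62.9 and 73.4 CPM in D1Dox_d2, against 52.3, 75.1 and 67.5 CPM in NoDox_d2, and the groups overlapped. Day 4 libraries held 123, 147 and 159 CPM in D3Dox_d4, against 113, 97.1 and 127 CPM in NoDox_d4, again with overlap. The log2 fold changes were 0.043 ± 0.15 (adjusted p = 0.858) and 0.34 ± 0.15 (adjusted p = 0.121). Without both NoDox libraries numbered 1, the day 4 value was 0.35 ± 0.13 and passed the threshold (adjusted p = 0.0413).

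All 3 TET genes were called in both comparisons over time, where 10.6% (without doxycycline) and 44% (with it) of all genes tested were called. With doxycycline Tet2 alone was called, on day 2, where 28.4% of all genes were. On day 4 none of the 3 was called, where 23.5% of all genes were, and Tet2 missed narrowly (edgeR adjusted p = 0.0521). The difference between these counts was not tested. In NoDox_d4 against NoDox_d2, Tet3 rose by 73.2% (log2 fold change 0.79 ± 0.15, adjusted p = 0.00672) and Tet2 by 73.2% (0.79 ± 0.19, adjusted p = 0.0211), while Tet1 fell by 34.3% (-0.61 ± 0.17, adjusted p = 0.0401). Same-numbered libraries of these 2 groups deviated together, and with the replicate number as a block over all 12 libraries the Tet1 value was -0.61 ± 0.18 and not called (adjusted p = 0.0645), whereas with the block on the 6 NoDox libraries alone, a fit added after the data were seen, it was called (adjusted p = 0.0146). Tet1 was also not called without any single one of 7 libraries, with adjusted p up to 0.129. Fitted on the compared libraries alone, none of the 3 TET genes was called between the NoDox days (edgeR adjusted p = 0.134 for Tet1, 0.0658 for Tet2 and 0.077 for Tet3), and Tet2 was also not called without replicate 3 of either NoDox group (adjusted p = 0.0677 and 0.0829). In D3Dox_d4 against D1Dox_d2, Tet3 rose by 114% (1.09 ± 0.15, adjusted p = 0.000245) and Tet2 by 51.0% (0.59 ± 0.19, adjusted p = 0.0232), and Tet1 fell by 30.5% (-0.53 ± 0.17, adjusted p = 0.0247). For Tet2 this missed the threshold when replicate 1 or 2 of D1Dox_d2, or replicate 2 or 3 of D3Dox_d4, was left out (adjusted p = 0.0681 to 0.0902). For Tet1 it was lost without D1Dox_d2 replicate 2 or 3 or D3Dox_d4 replicate 1 or 3 (adjusted p = 0.0509 to 0.0972). Dnmt1 was not called over time in either comparison (0.11 ± 0.13 without doxycycline and -0.30 ± 0.13 with it), and Uhrf1 fell in D3Dox_d4 against D1Dox_d2 (-0.33 ± 0.09, adjusted p = 0.0139), a call lost with no filter on low counts or without D1Dox_d2 replicate 1 or 2 or D3Dox_d4 replicate 1 (adjusted p = 0.0528 to 0.0587). Whether the change of Uhrf1 over time differed with and without doxycycline is the contrast tested above as the difference of effects, which was not called.

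Of the 7 enzymes tested, 3 were called on day 2 (2 fell, 1 rose), where 28.4% of all genes tested were called, 14.9% as higher and 13.4% as lower, and 3 on day 4 (all fell), where 23.5% were. For the difference of effects 1 of 7 was called, with a positive sign, beside 12.9% of all genes, of which 6.66% of all genes were positive and 6.24% negative. In NoDox_d4 against NoDox_d2, 2 rose and 2 fell, where 10.6% of all genes were called, 5.09% as higher and 5.55% as lower. In D3Dox_d4 against D1Dox_d2, 2 rose and 3 fell, where 44% were called, 22.6% as higher and 21.4% as lower. Libraries did not overlap between the groups for 6 of the 7 on day 2, beside 46% of all genes, and for 3 of the 7 on day 4, beside 40.6%. Over time the groups were separate for 4 of the 7 without doxycycline, beside 23.2%, and for 6 of the 7 with it, beside 65.7%. With so many genes called in these libraries, the counts among 7 genes are read only against these backgrounds, and no test was made of them. The 2 doxycycline comparisons have no library in common, whereas each comparison over time shares libraries with both.

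Because levels of different genes can be compared only per length, counts were also divided by the summed exon length of each gene, as RPKM. Uhrf1 was the highest enzyme in every group, at 68.9 ± 3.18 RPKM in D1Dox_d2 and 82.1 ± 4.91 RPKM in NoDox_d2, and at 55.0 ± 2.42 RPKM in D3Dox_d4 and 77.5 ± 7.18 RPKM in NoDox_d4 (SD, n = 3 each). Dnmt1 came next in every group, at 36.1 to 62.3 RPKM on average. In NoDox_d2 it overlapped Dnmt3b, which came next at 50.5 ± 7.54 RPKM. Dnmt3b also followed Dnmt1 in D1Dox_d2 (15.5 ± 0.99) and NoDox_d4 (18.2 ± 2.03), but in D3Dox_d4 Dnmt3a, at 11.8 ± 0.90 RPKM, lay above Dnmt3b, at 9.34 ± 0.81 RPKM, with no overlap. Tet1 and Tet3 overlapped in D1Dox_d2 and in NoDox_d2. On day 4, Tet3 was above Tet1 with no overlap, at 8.56 ± 1.09 against 2.71 ± 0.49 RPKM within D3Dox_d4 and at 6.74 ± 0.89 against 3.30 ± 0.37 RPKM within NoDox_d4. Tet2 was the lowest TET gene in every group, at 0.84 to 2.14 RPKM on average, and in D3Dox_d4 it overlapped Tet1. Exon lengths are unions over all annotated isoforms, 16642 bases for Dnmt3a and 5106 for Dnmt3b, so a long unused 3' end would lower a gene's RPKM.

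The balance between paralogs moved accordingly. Dnmt3b made up 65.2%, 64.5% and 61.7% of the summed RPKM of Dnmt3a and Dnmt3b in D1Dox_d2, against 75.3%, 79.5% and 81.1% in NoDox_d2. On day 4 it made up 43.5%, 45.5% and 43.4% in D3Dox_d4, against 51.4%, 68.9% and 67.0% in NoDox_d4. The shares were lower with doxycycline in every library of both days, and NoDox_d4 replicate 1 was the library nearest to the other group. The mean differences were -14.8 and -18.3 percentage points (two-sided exact permutation p = 0.1 for each, the smallest possible), and -16.5 and -23.8 percentage points without the NoDox libraries numbered 1.

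Among the TET genes, Tet1 held 39.3%, 44.5% and 41.6% of their summed RPKM in D1Dox_d2, against 60.8%, 45.7% and 47.5% in NoDox_d2. The day 4 share was 19.6%, 21.6% and 19.3% in D3Dox_d4, against 31.2%, 29.5% and 25.5% in NoDox_d4. Tet1 had the smaller share with doxycycline on both days without overlap, though on day 2 by only a small margin to NoDox_d2 replicate 2. Its mean difference was -9.54 percentage points on day 2 and -8.57 on day 4, and without the NoDox libraries numbered 1 it was -4.79 and -7.34. Tet2 held 15.2 ± 1.19% in D1Dox_d2 and 8.66 ± 0.72% in NoDox_d2, and 15.8 ± 1.86% in D3Dox_d4 and 12.7 ± 0.86% in NoDox_d4. Tet3 held 43.0 ± 1.65% in D1Dox_d2 and 39.99 ± 7.57% in NoDox_d2, and 64.0 ± 2.77% in D3Dox_d4 and 58.5 ± 2.41% in NoDox_d4. The exact permutation p was 0.1 for Tet1 and Tet2 on both days, and 0.9 and 0.2 for Tet3 on days 2 and 4. Within the maintenance pair, Uhrf1 held 60.7 ± 1.88% in D1Dox_d2 and 58.8 ± 0.86% in NoDox_d2, and 60.5 ± 2.89% in D3Dox_d4 and 55.5 ± 0.87% in NoDox_d4. Its share was higher with doxycycline by 1.97 percentage points on day 2 and by 5.06 on day 4, with no overlap on either day (exact permutation p = 0.1 for each). On day 2 the margin was small, with 59.6% as the lowest share in D1Dox_d2 and 59.4% as the highest in NoDox_d2.

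**Figure D4:**
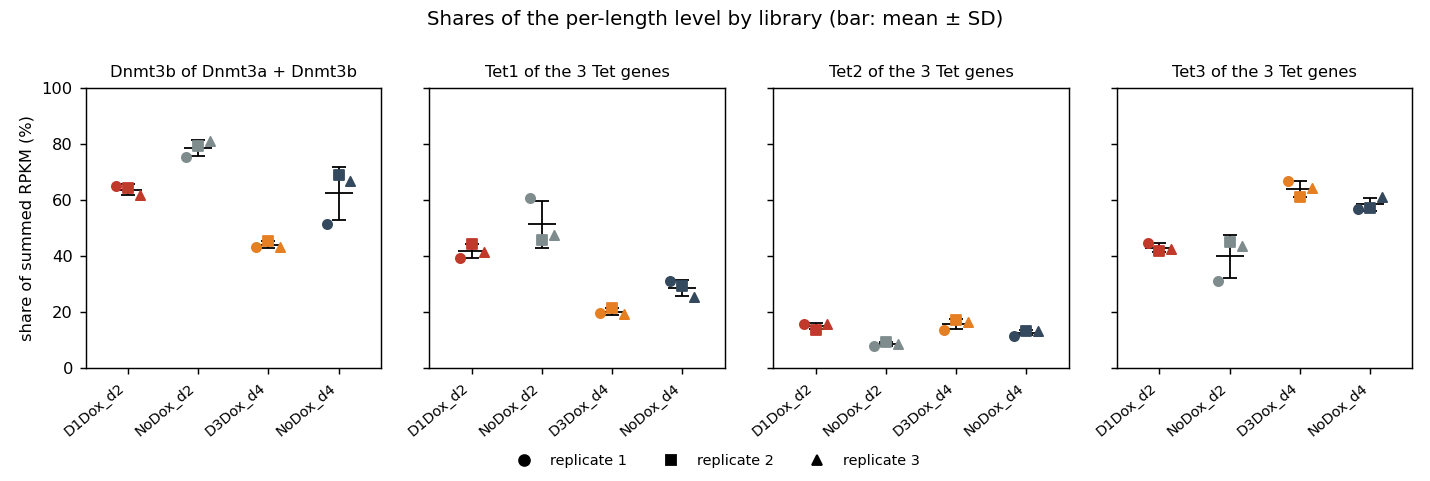
Share (percent) of Dnmt3b in the summed RPKM of Dnmt3a and Dnmt3b, and of each TET gene in the summed RPKM of the 3 TET genes, by library, with mean ± SD of 3 libraries as bars. Dnmt3b's share is 43.4% to 45.5% in D3Dox_d4, below every other group, and Tet3's share is 61.2% to 66.7% there.

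For the enzymes whose group means spanned more than 1 log2 unit, the genes with the most similar profile over 12 libraries were looked up among 11152 candidates by the root mean square difference of centred log2 CPM. Nearest to Dnmt3b were Npr1, a natriuretic peptide receptor (0.255), Trh, the thyrotropin-releasing hormone precursor (0.261), and Unc45b, a myosin chaperone (0.287), where the median candidate was at 0.939. Npr1 had 28.8, 29.9 and 25.9 CPM in D1Dox_d2, against 73.4, 66.2 and 72.1 CPM in NoDox_d2, and 14.5, 17.4 and 15.0 CPM in D3Dox_d4, against 18.7, 27.2 and 21.7 CPM in NoDox_d4. Its 4 groups stood in the same order as those of Dnmt3b except that its D1Dox_d2 libraries were mostly above those of NoDox_d4.

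Nearest to Tet2 were Cux2, a homeodomain factor (0.186), Smarcc2, a subunit of BAF chromatin remodellers (0.205), and Cep170, a centrosome protein (0.210), where the median candidate was at 0.606. Tet3 had the closest neighbours of the 3: Neo1, the receptor neogenin (0.142), Tcf12, a bHLH factor (0.149), and Tgfbr1, a TGF-beta receptor (0.158), with the median candidate at 0.594. Tgfbr1 had 132, 127 and 136 CPM in D1Dox_d2, against 119, 131 and 127 CPM in NoDox_d2, and 304, 325 and 339 CPM in D3Dox_d4, against 229, 235 and 227 CPM in NoDox_d4. Like Tet3, it was close between the day 2 groups and highest in D3Dox_d4.

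The counts of the remaining pathway lists are read against all genes tested, of which 14.9% rose and 13.4% fell on day 2, and 13.4% rose and 10.2% fell on day 4. Among 14 tested partners of de novo methylation and heterochromatin enzymes, 1 rose (7.14%) and 3 fell (21.4%) on day 2, and 1 rose (7.14%) and 4 fell (28.6%) on day 4. The gene that rose on both days was Zfp57, a zinc-finger protein that protects methylation at imprinted regions. It averaged 268 ± 5.60 CPM in D1Dox_d2 and 93.8 ± 1.98 CPM in NoDox_d2 (SD, n = 3 each), a log2 fold change of 1.51 ± 0.08 (adjusted p = 3.03e-07). On day 4 it averaged 128 ± 5.46 CPM in D3Dox_d4 and 71.6 ± 4.97 CPM in NoDox_d4 (0.84 ± 0.08, adjusted p = 2.55e-05), and the difference of effects was -0.67 ± 0.11 (adjusted p = 0.0037). Suv39h2, a histone H3 lysine 9 methyltransferase, fell on both days (-0.62 ± 0.10 and -0.82 ± 0.10), and Smchd1, a chromatin protein of the inactive X chromosome, fell on day 4 (-0.44 ± 0.09). The day 2 count of 3 was 1 when replicate 1 or 3 of D1Dox_d2, or replicate 2 or 3 of NoDox_d2, was left out, and 5 without replicate 1 of either NoDox group. On day 4 the count of 4 was 2 without D3Dox_d4 replicate 2 or 3, and 6 with upper-quartile scaling, the stricter filter, DESeq2, and also when replicate 1 of NoDox_d2, alone or with that of NoDox_d4, was left out.

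The 12 readers of methylated or unmethylated CpG gave 2 that rose (16.7%) and 3 that fell (25%) on day 2, and 1 of each (8.33%) on day 4, beside 14.9% and 13.4% of all genes on day 2 and 13.4% and 10.2% on day 4. Zbtb33, also known as Kaiso, fell on day 2 (log2 fold change -0.65 ± 0.10, adjusted p = 0.000959) and was at -0.019 on day 4, with a called difference of 0.64 ± 0.15. Cxxc4, a CXXC-domain protein known as a partner of Tet2 in mammalian cells, was at 15.7 ± 1.09 CPM in D1Dox_d2 and 33.6 ± 13.2 CPM in NoDox_d2 (-1.09 ± 0.29, adjusted p = 0.0156). The adjusted p was 0.0522 to 0.0664 when replicate 2 or 3 of either day 2 group was left out. Cxxc5, its relative, rose on day 4 by 0.37 ± 0.12 log2 units (adjusted p = 0.0414), a call lost under 13 of 21 alternatives. On day 2 the count that fell was 1 without D1Dox_d2 replicate 3 or NoDox_d2 replicate 2 or 3, neither of the 2 that rose was called when any of the D1Dox_d2 libraries or NoDox_d2 replicate 2 or 3 was left out, and 6 rose without both NoDox libraries numbered 1.

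Supply of the methyl donor and of the TET co-substrate was represented by 14 and 13 tested genes. Of the 14 genes for S-adenosylmethionine and one-carbon metabolism, 8 fell on day 2 (57.1%), and 7 fell (50%) and 1 rose (7.14%) on day 4. Shmt1, the cytosolic serine hydroxymethyltransferase, fell on both days (log2 fold change -0.56 ± 0.09 on day 2 and -0.92 ± 0.09 on day 4). Mthfd1, which interconverts folate-bound one-carbon units, averaged 87.8 ± 1.74 CPM in D3Dox_d4 and 175 ± 32.5 CPM in NoDox_d4 (a change of -49.9%, adjusted p = 0.000158). The day 2 count was between 3 and 9 over the alternatives, with 3 without D1Dox_d2 replicate 1 or 3 and 4 without D1Dox_d2 replicate 2 or NoDox_d2 replicate 2 or 3.

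Of the 13 genes of 2-oxoglutarate supply, 4 fell on day 2 (30.8%), and 1 rose (7.69%) and 2 fell (15.4%) on day 4. Idh1, the cytosolic enzyme that makes 2-oxoglutarate, averaged 389.6 ± 39.5 CPM in D3Dox_d4 and 188 ± 15.7 CPM in NoDox_d4, a log2 fold change of 1.05 ± 0.20 (adjusted p = 0.00278). Fh1, fumarase, fell on day 2 (-0.47 ± 0.10). Over the alternatives 2 to 5 of these genes fell on day 2, with 2 without D1Dox_d2 replicate 3 or NoDox_d2 replicate 2 or 3, and 1 to 4 fell on day 4, with 1 without D3Dox_d4 replicate 2 or 3 and 4 without both NoDox libraries numbered 1.

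The list for excision and repair of oxidised 5-methylcytosine also holds genes of general DNA repair. Of its 14 genes, 5 fell on day 2 (35.7%) and 1 fell on day 4 (7.14%), beside 13.4% and 10.2% of all genes. Parp1, a DNA break sensor, averaged 279 ± 17.7 CPM in D1Dox_d2 and 416 ± 17.8 CPM in NoDox_d2 (log2 fold change -0.58 ± 0.10, adjusted p = 0.00203). Xrcc1, a repair scaffold, was at 72.2 ± 2.89 CPM in D3Dox_d4 and 106 ± 4.90 CPM in NoDox_d4 (-0.55 ± 0.09, adjusted p = 0.00102). The day 2 count was 3 with the replicate block or without D1Dox_d2 replicate 2, 8 without NoDox_d2 replicate 1, 1 without D1Dox_d2 replicate 3, NoDox_d2 replicate 2 or NoDox_d2 replicate 3, and 9 without both NoDox libraries numbered 1. On day 4, 2 fell with upper-quartile scaling, 1 rose and 2 fell with the replicate block or without NoDox_d4 replicate 1, 2 rose and 3 fell with DESeq2, 3 rose and 3 fell without NoDox_d2 replicate 1, and 5 rose and 4 fell without both NoDox libraries numbered 1.

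Among 7 other TET partners, 4 fell on day 2 (57.1%) and 1 on day 4 (14.3%). Nanog, a pluripotency factor that binds Tet1 and Tet2 in mouse embryonic stem cells, averaged 37.3 ± 1.38 CPM in D1Dox_d2 and 222 ± 50.5 CPM in NoDox_d2 (log2 fold change -2.57 ± 0.31, adjusted p = 0.000145). On day 4 it averaged 15.0 ± 3.68 CPM in D3Dox_d4 and 47.4 ± 23.4 CPM in NoDox_d4 (-1.66 ± 0.31, adjusted p = 0.00249). Without D1Dox_d2 replicate 1, 1 of the 7 fell on day 2, and without replicate 2 or 3 of either day 2 group, 2 fell.

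**Figure D5:**
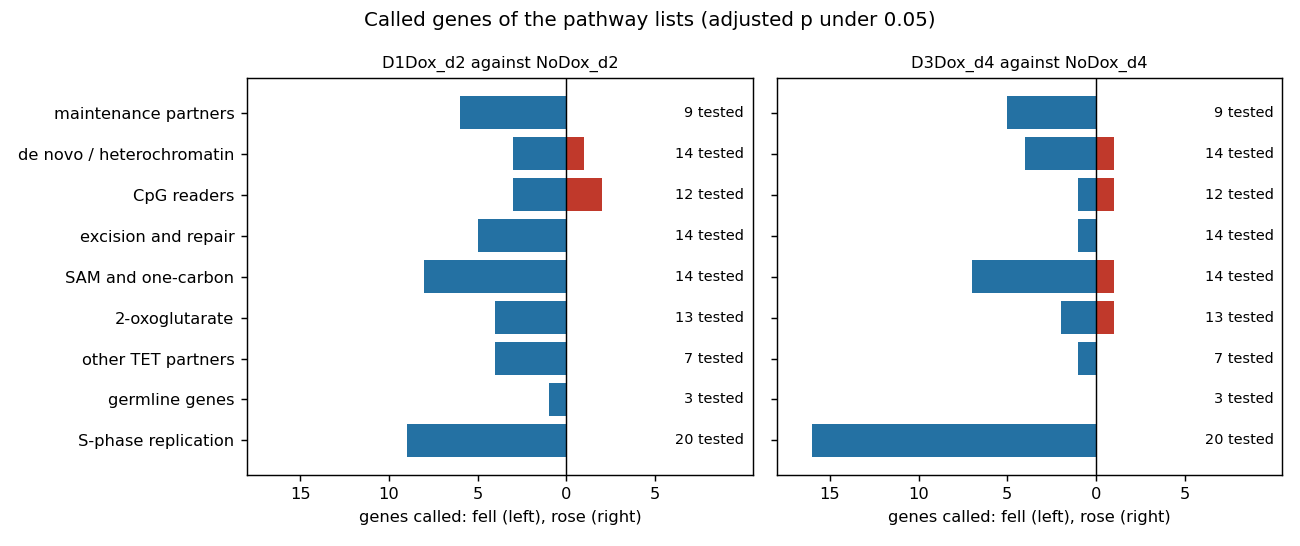
Number of genes called in each pathway list (x axis; fell to the left, rose to the right of 0) in the doxycycline comparisons of day 2 and day 4, with the number tested beside each bar. The replication list stands out by its 16 of 20 genes that fell on day 4.

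Germline genes that promoter methylation keeps silent in somatic cells were low in all groups. Of 18 such genes, 3 had enough counts to be tested, and 1 of these, Ddx4, was called lower on day 2 (adjusted p = 0.0317). It had 0, 0 and 1 counts in D1Dox_d2, against 1, 17 and 7 counts in NoDox_d2, so the groups overlapped. The call was lost under 5 of 19 alternatives, those without any D1Dox_d2 library or without NoDox_d2 replicate 2 or 3 (adjusted p up to 0.133). The summed level of the 18 genes was 7.12 to 9.88 CPM in D1Dox_d2, against 5.39 to 7.75 CPM in NoDox_d2, and 8.80 to 10.2 CPM in D3Dox_d4, against 5.92 to 9.31 CPM in NoDox_d4. The ranges overlapped on both days. Sycp1, a synaptonemal complex protein, and Brdt, a testis bromodomain protein, made up most of these counts, with 399 and 127 of them in D1Dox_d2. Dazl, an RNA-binding protein of germ cells, had 19 counts in D1Dox_d2 and 2 in NoDox_d2, and 1 count in D3Dox_d4 and 3 in NoDox_d4.

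Markers of other cells differed between the groups as well. The 13 markers listed for fibroblast feeders, cells whose presence was not tested, summed to 2108 to 2511 CPM in D1Dox_d2, against 693 to 726 CPM in NoDox_d2. Of these markers, 8 rose. On day 4 they summed to 788 to 926 CPM in D3Dox_d4, against 1021, 470 and 471.8 CPM in NoDox_d4, with 1 that rose and 5 that fell. The 8 neural markers summed to 204, 146 and 164 CPM in D1Dox_d2, against 115, 607 and 542 CPM in NoDox_d2, and 2 of them rose and 5 fell. On day 4 they summed to 869, 688 and 768 CPM in D3Dox_d4, against 264, 1017 and 1067 CPM in NoDox_d4, with 2 that rose and 1 that fell. On both days replicates 2 and 3 without doxycycline were above every library with it, and replicate 1 was below. The 10 nascent and paraxial mesoderm markers summed to 20.2 to 23.0 CPM in D1Dox_d2, against 169.6, 72.5 and 69.1 CPM in NoDox_d2, and 6 of the 8 tested fell. Their day 4 sum was 132 to 151 CPM in D3Dox_d4, against 408, 156 and 164 CPM in NoDox_d4, and 3 of the 8 fell. Germ cell markers, 8 in all, summed to 98.8 to 108 CPM in D1Dox_d2, against 337, 174 and 171 CPM in NoDox_d2, and 3 of the 6 tested fell. The day 4 sum was 74.6 to 92.2 CPM in D3Dox_d4, against 211, 107 and 109.9 CPM in NoDox_d4, and 1 of the 6 fell. Neither sum overlapped between the groups on either day. The part of these cell types in the enzymes' values was not tested.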

How the data were processed

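Per the labels' protocols, total RNA was made into NEBNext Ultra II libraries, sequenced as 150 bp pairs and trimmed with Trim Galore to at least 50 bp. STAR, featureCounts and DESeq2, with GRCm38 and mm10, are named in the submitters' processing notes. The authors deposited raw counts per gene, made without a strand setting by featureCounts 2.0.1 on GENCODE vM25 according to the file headers, so antisense reads are included. Ensembl identifiers gave a symbol for 55141 of the 55487 genes.

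In R 4.3.3, edgeR 4.0.16 with limma 3.58.1 tested these counts by its quasi-likelihood F-test, with TMM scaling, the filterByExpr filter, a coefficient per group, all 12 libraries and 8 residual degrees of freedom. P-values were adjusted by Benjamini-Hochberg over 18109 genes, and a gene was called under 0.05. SE was taken as |log2 fold change| over the root of the F statistic. RPKM is CPM per kb of merged exons. Intervals and floors cover counting error only. The test was tried on simulated data. Alternatives were the DESeq2 1.42.0 test and its size factors, scaling by upper quartile, no or a stricter filter (1 CPM in 3 libraries), the replicate block, only the libraries compared, robust moderation, and libraries left out. Replicate numbers come from the labels. Deviations of same-numbered NoDox_d4 and NoDox_d2 libraries correlated at 0.545, 0.361 and 0.308, while no other pair of groups had all 3 above 0.1. The main fit nevertheless had no pairing, and the replicate block was used only among the alternatives.

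The members, gene lists, markers, motifs and tests were chosen with earlier results of these data known. Named were all members, up to 2 called genes per list, direction and comparison with the lowest adjusted p (some are not reported here), the 3 nearest profiles of members spanning over 1 log2 unit, and Mixl1; the T, Pou5f1, Fgf5, Zfp42, Sycp1, Brdt and Dazl values were chosen after they were seen. Nearest profiles needed a mean of at least 5 CPM.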

Additional observations from a re-analysis of the deposited data

Results flagged for a closer look

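The doxycycline effect differed between the days for 1 of the 7 tested enzymes and for 15 genes of the pathway lists. Each had an adjusted p under 0.05 for the difference in edgeR, as did 12.9% of the 18109 genes tested. No test was made of these counts against that share. Day and schedule of induction cannot be told apart in these differences. Values are log2 units, day 4 effect minus day 2 effect. Dnmt3b was at 0.74 ± 0.18, with effects of -0.97 on day 4 and -1.71 on day 2. The 12 named in the text follow. Positive differences were seen for Neil2, a DNA glycosylase (1.70), Cxxc4 (1.68), Idh1 (0.95), Cdca7l (0.89) and Zbtb33 (0.64). Neil2 had 7.54 CPM in D3Dox_d4 and 4.63 CPM in NoDox_d4, which was not called, and 4.24 CPM in D1Dox_d2 and 8.49 CPM in NoDox_d2, which was. Negative differences were those of Rrm2 (-0.74) and Cdc6 (-0.71), both replication genes, Zfp57 (-0.67), Mthfd1 (-0.62), Mat2a, which makes S-adenosylmethionine (-0.60), Hells (-0.54) and Mcm5 (-0.51). Rrm2 had effects of -0.55 on day 4 and 0.19 on day 2, and Cdc6 of -0.77 and -0.060. For Cdca7l, Zfp57, Neil2, Cdc6 and Rrm2 the call held under all 20 alternatives. It was lost under 12 of 20 for Idh1, 9 for Hells, 8 for Mthfd1, 6 for Mat2a, 4 for Cxxc4 and 1 for Zbtb33. For Mcm5 the difference was not followed over the alternatives.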

How the results depend on the processing

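Dnmt3b was called in the same direction in both doxycycline comparisons and in both comparisons over time under every alternative, and so were Dnmt1 and Uhrf1 on day 4 and Tet3 in D3Dox_d4 against D1Dox_d2. Without both NoDox libraries numbered 1, 18613 genes were tested, Dnmt3l among them, and the enzymes called were 6 on day 2, 6 on day 4, 3 for the difference, 5 between the NoDox days and 8 for D3Dox_d4 against D1Dox_d2. In the same order 9902, 7168, 6424, 4534 and 11502 genes were called, or 53.2%, 38.5%, 34.5%, 24.4% and 61.8%. With no filter, 2 members were called for the difference, the second being Dnmt3a. With only the NoDox libraries fitted, 1 member and 206 genes were called between the days, and with the replicate block added, 4 members and 1928 genes. With the replicate block over all 12 libraries, Tet2 on day 4 passed the threshold (log2 fold change 0.53) and Tet1 between the NoDox days did not (-0.61); no other enzyme call changed with that pairing. Dnmt1 on day 2 also passed with upper-quartile scaling, no filter, DESeq2 and only the libraries compared. Leaving out a library gave 1 to 6 members and 3048 to 7438 genes on day 2, and 3 to 4 and 2756 to 5554 on day 4. For the difference it gave 0 to 2 and 1226 to 5037. Between the NoDox days it gave 2 to 5 and 1064 to 3208, and for D3Dox_d4 against D1Dox_d2 3 to 7 and 5976 to 9425. These member counts include Dnmt3l where it passed the filter and was called. Signs turned for values that were not called: leaving out a library gave -0.10 to 0.15 for Tet3 on day 2, -0.043 to 0.37 for Dnmt3a on day 4, and, for the difference, -0.30 to 0.014 for Tet2 and -0.068 to 0.23 for Tet1. With both NoDox libraries numbered 1 left out, Tet3 on day 2 was -0.098 and Dnmt1 between the NoDox days -0.030. The causes were not tested. Among the enzymes, depth limits Dnmt3l alone. It also limits the germline list, where 3 of 18 genes had enough counts to be tested.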
